A study of Homo sapiens with 32 samples.

Results

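The mitosis and G2/M genes were 48 genes chosen by name: every row of the deposited tables whose gene symbol was on the list was taken, and all 48 of 48 were found among 25498 rows. They encode the machinery with which a cell enters and completes mitosis. The RNA-Seq libraries came from LNCaP cells, an established human prostate cancer line. There were 8 groups of 4 libraries: cells grown in FBS, cells moved to medium with charcoal/dextran-treated serum (CSS, which is low in steroid hormones), and cells in CSS that then received EGF or NRG-1 at 100 ng/ml for 5 minutes, 1 hour, or 4 hours. EGF is the ligand of EGFR and NRG-1 is a ligand of the HER3 and HER4 receptors, which pair with HER2. Apart from the FBS group, every group, control included, had been in stripped serum for about a day. Each group held 2 libraries from each of 2 labelled batches, labelled as biological replicates of 1 cell line, so the P values measure the spread between these cultures.

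Entry into mitosis is driven by CDK1 bound to B- and A-type cyclins. WEE1 and PKMYT1 hold CDK1 back and the CDC25 phosphatases release it. Kinases of the Polo and Aurora families, kinesins, and the kinetochore then build the spindle and attach chromosomes, and the spindle checkpoint delays anaphase until attachment is complete. Transcripts of these genes accumulate together late in the cell cycle: in resting cells the DREAM complex represses them through promoter elements called the cell cycle genes homology region (CHR), and in cycling cells MYBL2, FOXM1, and NF-Y, which binds CCAAT boxes, drive them.

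The libraries held 63822654 to 92401724 expected counts, and the members held 421 to 37620 counts in any library, and replicate libraries differed by more than counting error in each of 48 pairs. All 7 LNCaP markers were detected in every group. KLK3, the prostate-specific antigen gene, averaged 283 TPM in CSS and 2442 TPM in FBS. Some replicate 2 libraries of batch 2 stood apart. Relative to CSS, the middle 50% of the members ran from 1.04 to 1.81 on the log2 scale in the FBS library and from -0.43 to 0.16 in the NRG-1 4-hour library. This was wider than in the other libraries of those groups. Not all were wider: the EGF 1-hour library ran from -0.10 to 0.07, against -0.20 to 0.17 in batch 1 replicate 2. The differences between groups also varied with transcript length. Counts of calls are therefore also given without the 8 replicate 2 libraries of batch 2 and with a length term. Expected counts were not whole in all 32 libraries for CCNA2, HMMR, and PRC1 and in 31 for BUB1B, KIF4A, and FOXM1, so reads shared with similar transcripts were split for these genes; KIF4A and PTTG1 also have near-identical copies, and their levels are less certain.

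Promoter elements are shown first. The table of RefSeq promoters used here (GRCh38.p14) held 40 of the 48 members, 50 windows of 300 bases in all, each running from 250 bases before to 50 bases after a start. The windows of 5 members that hold both elements are shown here, in order of TPM, because they are among the genes whose values in each library are given below. Capitals mark CCAAT and the CHR sequences TTTGAA and TTCGAA on either strand:
CDK1, chr10:60778081-60778380, plus strand: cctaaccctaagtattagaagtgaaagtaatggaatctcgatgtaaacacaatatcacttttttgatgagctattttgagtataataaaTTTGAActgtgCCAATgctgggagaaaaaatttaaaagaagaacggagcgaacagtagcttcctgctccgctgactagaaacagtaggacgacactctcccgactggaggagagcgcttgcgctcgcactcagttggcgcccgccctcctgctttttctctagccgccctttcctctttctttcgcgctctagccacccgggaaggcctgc
NUSAP1, chr15:41332631-41332930, plus strand: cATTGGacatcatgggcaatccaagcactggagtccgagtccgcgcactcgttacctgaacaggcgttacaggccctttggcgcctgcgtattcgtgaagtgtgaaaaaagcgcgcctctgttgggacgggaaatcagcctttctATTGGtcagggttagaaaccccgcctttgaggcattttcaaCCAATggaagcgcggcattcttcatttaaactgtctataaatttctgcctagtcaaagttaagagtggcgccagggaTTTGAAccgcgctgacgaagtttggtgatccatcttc
MAD2L1, chr4:120066799-120067098, minus strand: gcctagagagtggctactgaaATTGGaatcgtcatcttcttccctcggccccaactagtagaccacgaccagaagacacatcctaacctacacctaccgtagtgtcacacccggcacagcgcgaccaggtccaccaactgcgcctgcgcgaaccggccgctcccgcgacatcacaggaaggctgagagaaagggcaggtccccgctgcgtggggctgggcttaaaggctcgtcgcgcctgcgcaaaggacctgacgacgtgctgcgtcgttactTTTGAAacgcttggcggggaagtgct
HMMR, chr5:163460382-163460681, plus strand: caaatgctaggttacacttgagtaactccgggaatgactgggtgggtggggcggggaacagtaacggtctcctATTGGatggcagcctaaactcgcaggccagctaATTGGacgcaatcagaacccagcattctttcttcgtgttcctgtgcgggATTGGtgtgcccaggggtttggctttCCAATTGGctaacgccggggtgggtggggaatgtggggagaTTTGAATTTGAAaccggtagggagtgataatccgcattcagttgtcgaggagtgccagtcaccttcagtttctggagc
PRC1, chr15:90994486-90994785, minus strand: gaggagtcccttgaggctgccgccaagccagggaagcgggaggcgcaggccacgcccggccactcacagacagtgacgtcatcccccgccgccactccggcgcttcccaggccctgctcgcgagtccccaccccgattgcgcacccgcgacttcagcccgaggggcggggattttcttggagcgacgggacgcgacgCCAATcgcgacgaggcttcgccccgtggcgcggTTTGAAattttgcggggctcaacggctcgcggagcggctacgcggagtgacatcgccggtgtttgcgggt

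CDK1 is the mitotic kinase itself, NUSAP1 and HMMR are spindle proteins, MAD2L1 is a checkpoint protein, and PRC1 bundles microtubules of the central spindle. Overlapping matches were each counted. A CCAAT box stood in 76% of the 50 member windows and in 34.6% of all 35116 windows, and a CHR sequence in 68% against 16.4%. Both stood in 58% of the member windows and in 6.38% of all. In the 37 windows of the other G2/M genes, CCAAT stood in 62.2%, a CHR sequence in 70.3%, and both in 48.6%, so the elements were not particular to the 48 members. In the 28 windows of G1/S genes, the replication and S-phase entry genes described below, CCAAT stood in 67.9% and a CHR sequence in 1 window (3.57%). These matches are descriptions of letters in a window, not of bound sites, and 3 of the 40 members (MYBL2, KIF2C, and CENPE) held neither. The windows of AURKA, BIRC5, BUB3, FOXM1, RACGAP1, TPX2, TTK, and UBE2C were not analysed here.

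The first comparison asked how the genes differed between full and stripped serum. All 48 members were higher in FBS than in CSS, against 26% of the 16995 genes tested that were called higher in this direction. The log2 fold changes ran from 0.85 to 1.94 with a median of 1.25, a 2.38-fold difference, while the median over all genes tested was -0.01. A difference of more than 1 on the log2 scale was held by 42 members, against 4.91% of all genes tested. Every FBS library lay above every CSS library for all 48 members, against 17.7% of genes tested. In bulk RNA, more cells in G2 and mitosis and more of each RNA per cell cannot be told apart.

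**Figure D1:**
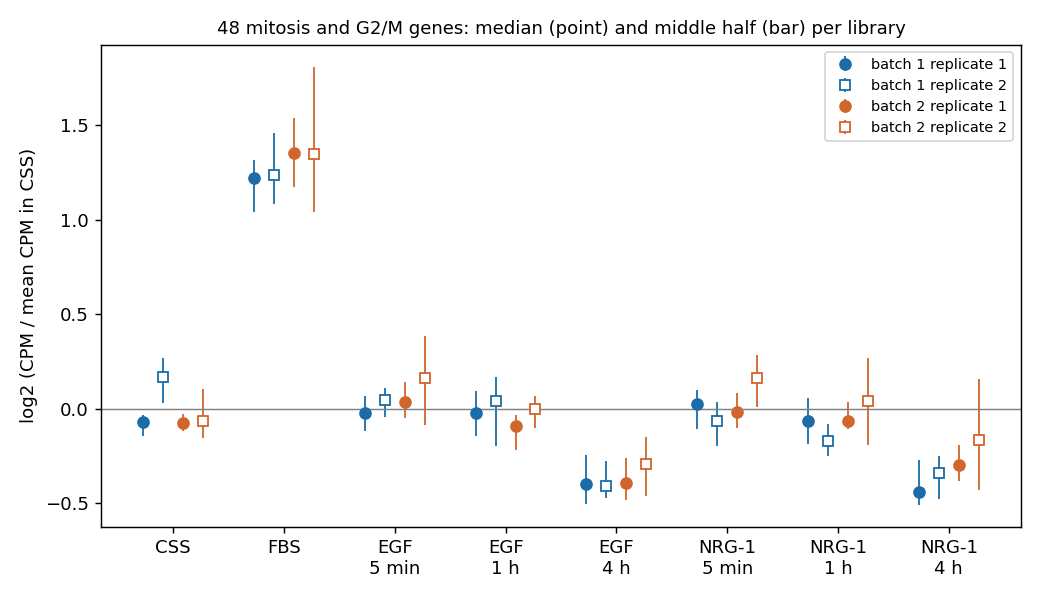
Median of the 48 genes in each library (point) with their middle 50% (bar), as log2 of CPM over the mean CPM in CSS, by group; color marks the batch and an open square replicate 2. The 4 FBS medians lie between 1.22 and 1.36 and the 8 libraries at 4 hours between -0.44 and -0.17, below every CSS library.

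The members' summed level per length showed the same order. It was 1804 ± 152 TPM in CSS and 4072 ± 186 TPM in FBS (SD, n = 4). With EGF it was 1856 ± 59.8 TPM at 5 minutes, 1778 ± 41.6 at 1 hour, and 1397 ± 70.4 at 4 hours, and with NRG-1 it was 1854 ± 65.7, 1706 ± 102, and 1459 ± 119 TPM. FBS was thus the highest group, and the groups at 4 hours were the lowest; CSS and the groups at 5 minutes and 1 hour overlapped. Every member had its highest group mean in FBS, in TPM and in CPM. In TPM 47 had their lowest mean at 4 hours, 31 with EGF and 16 with NRG-1, and KIF20B had it after NRG-1 at 1 hour. In CPM 44 had their lowest mean at 4 hours, 30 with EGF and 14 with NRG-1, and the 4 others were CDC25B (lowest in CSS), BUB3 and MAD2L1 (EGF at 1 hour), and KIF20B (NRG-1 at 1 hour).

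**Figure D2:**
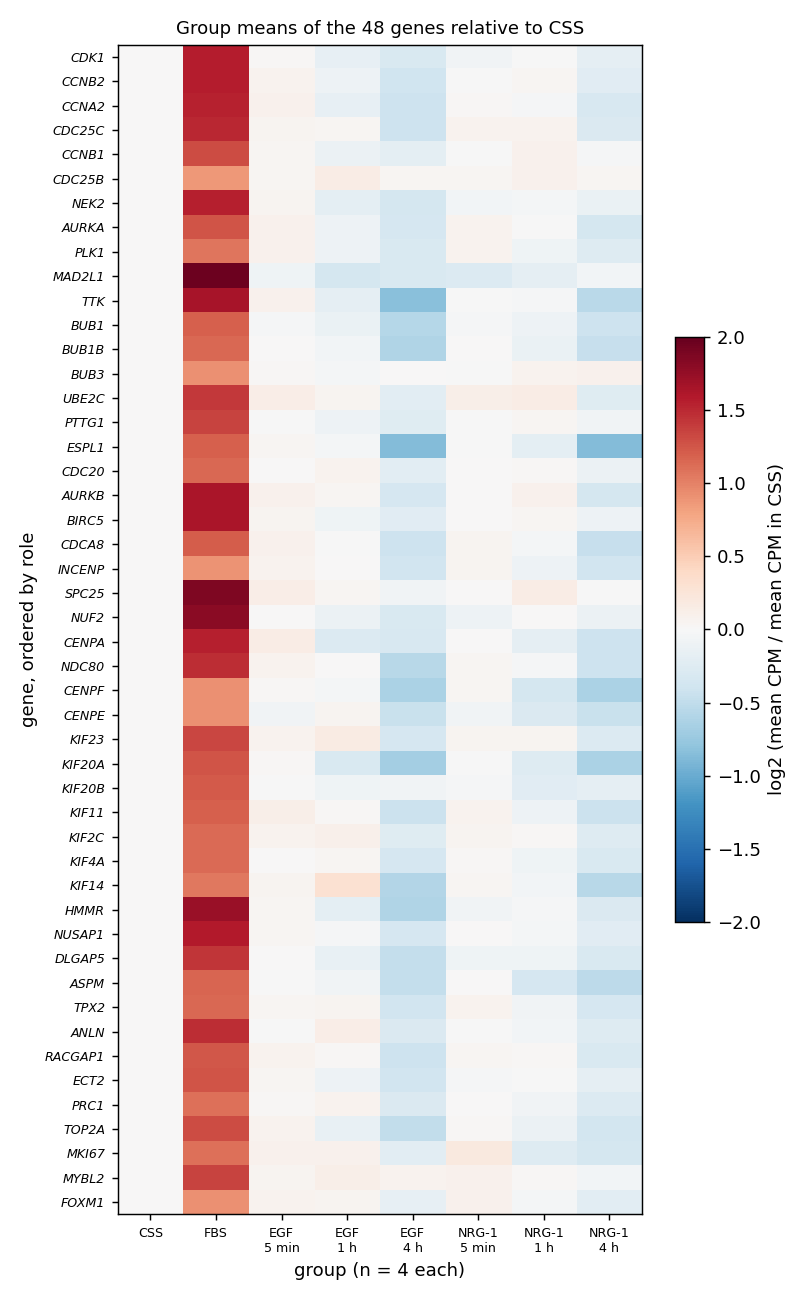
Mean level of each of the 48 genes (rows, by role) in each group (columns, n = 4), as log2 of mean CPM over mean CPM in CSS. The FBS column is positive in all 48 rows, the columns at 5 minutes are near 0, and the columns at 4 hours are negative in most rows; BUB3, CDC25B, and MYBL2 are near 0 there.

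The cyclin-CDK1 genes carried the largest single level. CDK1 averaged 161 ± 13.2 TPM in CSS and 415 ± 21.1 TPM in FBS, the highest of the members per length. In CPM, the CSS libraries held 167, 164, 142, and 178 (in the order batch 1 replicates 1 and 2, batch 2 replicates 1 and 2, used throughout), and the FBS libraries 397, 490, 469, and 584. The lowest FBS library was far above the highest CSS library. The log2 fold change was 1.57 (SE 0.16, adjusted p = 1.57e-09), beside those of CCNB2 (1.55), CCNA2 (1.53), and CDC25C (1.51), while CCNB1, the main B-type cyclin, stood at 1.25. CDC25B, a phosphatase that starts CDK1 activation, had the smallest serum difference of all members, 0.85 (SE 0.08).

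The members with the largest serum differences were MAD2L1 of the checkpoint and SPC25 and NUF2 of the kinetochore. By role, the median log2 fold change was highest in the cyclin-CDK1 group (1.52) and the kinetochore (1.503), and that of the checkpoint was 1.19. MAD2L1, which with BUB1B and BUB3 holds back the anaphase-promoting complex (APC/C), rose the most: CSS held 42.9, 39.1, 40.9, and 52.2 CPM and FBS 116, 148, 180, and 241 CPM. The groups were far apart, with the FBS libraries spread over a wide range, and the log2 fold change was 1.94 (SE 0.16, adjusted p = 6.29e-11). SPC25 and NUF2, subunits of the NDC80 complex that grips microtubules, followed with 1.87 (SE 0.13) and 1.78 (SE 0.18). SPC25 held 11.5, 14.0, 10.4, and 11.3 CPM in CSS and 36.8, 45.3, 41.3, and 48.9 CPM in FBS. NUF2 held 28.1, 30.9, 26.2, and 36.6 CPM in CSS and 74.3, 102, 104, and 142 CPM in FBS. In these kinetochore genes, as in MAD2L1, the batch 2 replicate 2 library was the highest FBS library. BUB3, which also serves outside the checkpoint, rose less, 0.91 (SE 0.10), from 134, 127, 126, and 138 CPM in CSS to 216, 251, 238, and 282 CPM in FBS.

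Spindle and passenger genes came next. HMMR, a spindle protein, held 73.3, 83.7, 83.0, and 108 CPM in CSS and 191, 264, 315, and 382 CPM in FBS, a log2 fold change of 1.70 (SE 0.17). AURKB, the kinase of the chromosomal passenger complex, held 14.8, 18.1, 13.8, and 13.2 CPM in CSS and 45.0, 47.9, 43.2, and 49.8 CPM in FBS (1.64, SE 0.09). Its partner BIRC5 (survivin) held 71.7, 75.3, 68.7, and 79.1 CPM in CSS and 184, 219, 223, and 290 CPM in FBS (1.62, SE 0.11). Every FBS library again exceeded every CSS library, AURKB with little spread. Within the same complex, CDCA8 (1.22) and the scaffold INCENP (0.90) had smaller differences.

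The most abundant members of the other roles rose too. NUSAP1 held 91.6, 104, 91.7, and 100 CPM in CSS and 255, 288, 303, and 312 CPM in FBS (log2 fold change 1.58). PTTG1 (securin, which inhibits separase until anaphase) held 33.7, 39.6, 50, and 54.7 and 72.9, 86.7, 127, and 166 CPM (1.31), with batch 2 above batch 1 in both groups. TOP2A, which untangles chromosomes, held 133, 164, 117, and 129 and 337, 365, 334, and 308 CPM (1.31). In none of the 3 did an FBS library reach down to a CSS library. KIF2C, a kinesin that shortens microtubules, PRC1, and the kinase PLK1 had log2 fold changes of 1.14, 1.10, and 1.06. KIF2C held 30.4, 38.3, 30.0, and 28.5 CPM in CSS and 72.6, 69.9, 69.5, and 67.0 CPM in FBS. PRC1 held 73.2, 91.5, 74.2, and 67.2 CPM and 182, 164, 160, and 148 CPM in the same order. PLK1 held 46.8, 53.3, 51.5, and 48.6 CPM in CSS and 99.6, 92.1, 118, and 111 CPM in FBS. The FBS libraries of these 3 genes lay closer together than those of MAD2L1 and NUF2. Of the transcription factors, MYBL2 rose by 1.35 on the log2 scale and FOXM1 by 0.92, FOXM1 from 82.2, 100, 98.6, and 86.4 to 190, 167, 182, and 155 CPM.

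The 5 genes with printed promoters ranged from 1.10 (PRC1) to 1.94 (MAD2L1). The lists around the members rose as well in FBS, where 26% of all genes tested were called higher. All 36 other G2/M genes were higher (median log2 fold change 1.35), led by DEPDC1 (1.90), SKA3 (1.70), MELK (1.63), and KIF15 (1.61), and all 24 G1/S genes were higher (median 1.40), led by the replication genes GINS2 (2.15), CDC45 (1.92), CDC6 (1.84), and RRM2 (1.68). Among the 7 regulators of G2 entry, 6 were higher, led by PKMYT1 (1.47) and CDC25A (1.24); the 1 that was lower, named after its value was seen, was CDKN1A, the CDK inhibitor p21 (-0.38). Of the 11 genes of the DREAM and MuvB complexes, 7 were higher, led by LIN9 (1.34), RBL1 (0.96), and LIN52 (0.71), and 2 were lower, among them RBL2 (-0.56), which encodes the p130 pocket protein of resting cells. Of the 7 LNCaP markers, 4 rose (KLK2 by 3.98 and KLK3 by 3.33 on the log2 scale) and 3 fell. Their part in the members' difference was not tested.

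**Figure D3:**
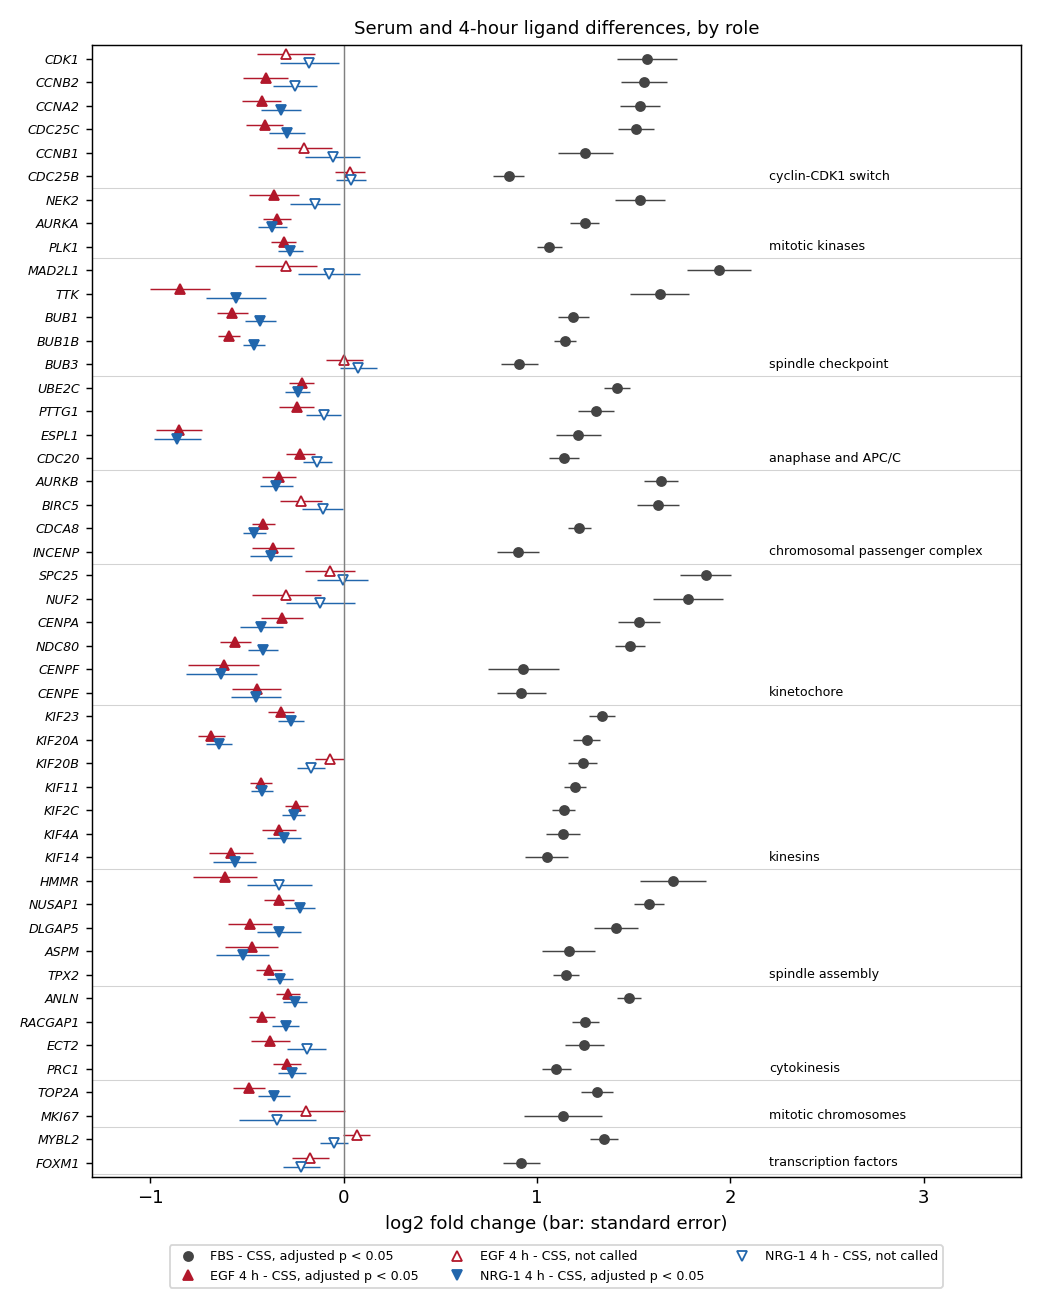
Log2 fold change of each of the 48 genes against CSS, with its standard error, for FBS (grey), EGF at 4 hours (red), and NRG-1 at 4 hours (blue); filled symbols have an adjusted p under 0.05. All grey points lie between 0.85 and 1.94, and the colored points lie between -0.86 and 0.08.

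The next comparisons asked how these genes differed from CSS after a growth factor was added to stripped serum, and when. The labels give no time for the untreated CSS cells. Effects of a ligand and of further hours in stripped serum therefore cannot be told apart. At 5 minutes no difference was detectable: 0 of 48 members were called with EGF, against 0.00588% of genes tested, and 0 with NRG-1, against 0%. At an unadjusted p under 0.05 by edgeR there was 1 member with EGF, KIF11 (0.12, named after its value was seen), and 0 with NRG-1. The share of all genes at that unadjusted threshold is not given, so these counts are not read as differences. The log2 differences at 5 minutes lay between -0.10 and 0.14 with EGF and between -0.28 and 0.22 with NRG-1.

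At 1 hour, 1 member was called, KIF20A, which encodes a kinesin of the central spindle and cytokinesis. It was lower with both ligands, where 3.51% of genes tested were called lower with EGF and 2.28% with NRG-1. KIF20A held 37.5, 46.9, 40.3, and 39.1 CPM in CSS, 32.4, 32.6, 33.9, and 34.2 CPM after EGF for 1 hour, and 34.4, 30.8, 38.1, and 33.9 CPM after NRG-1 for 1 hour. The EGF libraries lay below every CSS library, and those with NRG-1 overlapped CSS. It fell by 0.30 on the log2 scale with EGF (SE 0.07, adjusted p = 0.00267) and by 0.26 with NRG-1 (SE 0.07, adjusted p = 0.0149). The NRG-1 call did not hold without CSS batch 1 replicate 2, without NRG-1 1-hour batch 1 replicate 2, or without NRG-1 1-hour batch 2 replicate 2 (0 members called each time). In batch 2 alone neither call held (log2 differences of -0.22 and -0.14, adjusted p = 0.459 and 0.992). With the replicate number as a block, 3 members were lower and 1 was higher with EGF (6.65% and 8.27% of all genes tested in that fit), namely KIF20A, MAD2L1 (adjusted p = 0.0126), and CENPA (0.0375) and, upward, the kinesin gene KIF14 (0.00806). With NRG-1, 5 were lower (5.13% of all genes tested): KIF20A, KIF20B, CENPE, CENPF, and ASPM (adjusted p from 0.00661 to 0.0375).

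Of the 7 regulators of G2 entry, 3 were higher and 1 was lower with EGF at 1 hour, and 2 were higher with NRG-1. Of all genes tested, 3.51% were called lower with EGF at 1 hour, and the shares called higher are not given here. WEE1 rose at 1 hour by 0.94 on the log2 scale with EGF and by 0.51 with NRG-1, from 38.9 ± 3.24 CPM in CSS to 74.7 ± 4.51 and 55.4 ± 3.49 CPM. The difference between the ligands was 0.43 (SE 0.06, adjusted p = 6.98e-05). By 4 hours WEE1 was below CSS, at 29.4 ± 1.91 CPM with EGF and 34.5 ± 0.74 CPM with NRG-1 (adjusted p = 3.97e-06 and 0.0281). CDKN1A rose at 1 hour by 0.67 and 0.50 and remained higher at 4 hours, by 0.48 and 0.31. Its level also differed between batches (log2 difference 0.79). SFN, which encodes the 14-3-3 protein sigma, rose at 4 hours by 1.33 with EGF and 1.01 with NRG-1.

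At 4 hours the members were lower with both ligands. With EGF 36 of 48 fell and 0 rose, against 24.6% of genes tested called lower. With NRG-1 30 fell and 0 rose, against 21%. The log2 differences ran from -0.85 to 0.07 with EGF (median -0.34, 0.790-fold) and from -0.86 to 0.08 with NRG-1 (median -0.30), and none passed a log2 fold change of 1. The medians over all genes tested were -0.02 and -0.01. The 30 members called with NRG-1 were all called with EGF, and both comparisons use the same CSS libraries. All EGF libraries lay below all CSS libraries for 31 members, against 19.7% of genes tested, and all NRG-1 libraries for 19, against 14.7%. CSS batch 1 replicate 2, the highest CSS library, held a member median 0.17 above the CSS mean; without it, 31 members were called lower with EGF (22.5% of genes tested) and 25 with NRG-1 (18.8%).

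**Figure D4:**
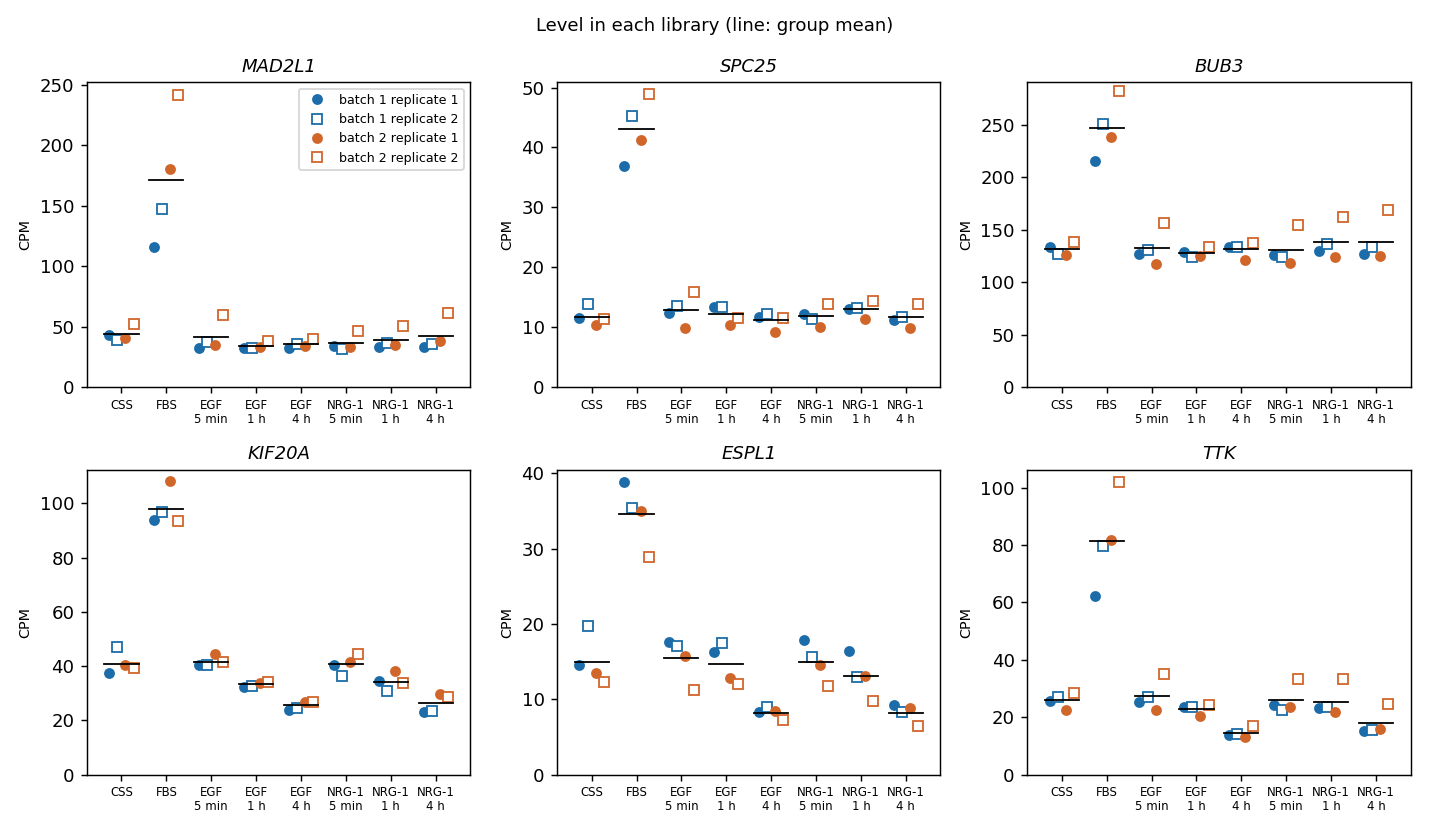
CPM of 6 members in each library by group, with the group mean as a line; color marks the batch and open squares replicate 2. FBS is the highest group in each panel; KIF20A, ESPL1, and TTK are lower at 4 hours with both ligands, MAD2L1, SPC25, and BUB3 are not called there, and the batch 2 replicate 2 libraries (open orange squares) are often the highest of their group for MAD2L1, BUB3, and TTK and the lowest for ESPL1.

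The largest fall was in ESPL1, which encodes separase, the protease that cleaves cohesin at anaphase. It held 14.6, 19.7, 13.5, and 12.2 CPM in CSS, 8.27, 8.98, 8.42, and 7.24 CPM after EGF for 4 hours, and 9.26, 8.30, 8.80, and 6.45 CPM after NRG-1 for 4 hours. All 8 treated libraries were below all 4 CSS libraries. Its log2 difference was -0.85 with EGF (SE 0.12, adjusted p = 8.52e-07) and -0.86 with NRG-1 (SE 0.12, adjusted p = 1.04e-06), and it had held 16.2, 17.5, 12.9, and 12.0 CPM after 1 hour of EGF. Its FBS libraries held 38.8, 35.4, 35.0, and 28.8 CPM, so the gene was higher in FBS than in CSS and lower after 4 hours with ligand. Securin is its inhibitor, and PTTG1 held 28.9, 32.3, 43.2, and 46.3 CPM after 4 hours of EGF (log2 difference -0.24, adjusted p = 0.0277) and 28.5, 32.7, 49.6, and 58.8 CPM with NRG-1 (-0.10, adjusted p = 0.392). The EGF call for PTTG1 was lost without CSS batch 1 replicate 2 or without batch 1 replicate 1, batch 2 replicate 1, or batch 2 replicate 2 of EGF at 4 hours.

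TTK, the kinase that recruits the spindle checkpoint, held 25.8, 27.2, 22.7, and 28.4 CPM in CSS, 13.7, 14.0, 13.2, and 17.1 CPM with EGF at 4 hours, and 15.2, 15.6, 15.7, and 24.8 CPM with NRG-1. It fell by 0.85 with EGF (SE 0.15, adjusted p = 3.70e-05) and by 0.56 with NRG-1 (SE 0.15, adjusted p = 0.00399), with 1 NRG-1 library inside the CSS range. The checkpoint genes BUB1 and BUB1B fell with both ligands, by 0.58 and 0.59 with EGF and by 0.43 and 0.46 with NRG-1. BUB3 was not called: it held 134, 134, 121, and 138 CPM with EGF and 127, 134, 126, and 169 CPM with NRG-1, log2 differences of 0.00 and 0.08 (adjusted p = 0.989 and 0.561). MAD2L1 held 32.4, 35.6, 34.2, and 39.8 and 33.2, 35.4, 38.1, and 61.6 CPM (-0.30 and -0.08, adjusted p = 0.127 and 0.738; 0.0110 with EGF under the replicate block). The checkpoint genes thus divided into 3 that were called lower and 2 that were not.

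Among the kinesins, 6 of 7 fell with each ligand. KIF20A held 24.0, 24.6, 26.9, and 26.9 CPM with EGF and 23.2, 23.6, 29.9, and 28.6 CPM with NRG-1 at 4 hours, below every library of CSS and of 1 hour with the same ligand, and its log2 differences from CSS were -0.68 and -0.65. KIF14, another kinesin of cytokinesis, held 16.2, 21.9, 19.3, and 17.3 CPM in CSS, 22.5, 25.9, 22.6, and 21.4 CPM after EGF for 1 hour, and 11.5, 11.9, 13.4, and 13.2 CPM after 4 hours. With NRG-1 it held 19.3, 15.6, 21.1, and 16.1 CPM at 1 hour and 11.7, 11.8, 15.2, and 11.9 CPM at 4 hours. KIF14 was nominally above CSS at 1 hour of EGF (log2 difference 0.31, adjusted p = 0.0858) and below it at 4 hours (-0.58 with EGF and -0.56 with NRG-1). KIF2C held 28.6, 26.9, 26.0, and 25.6 CPM with EGF and 26.5, 28.0, 26.7, and 25.0 CPM with NRG-1 at 4 hours (log2 differences -0.25 and -0.26). KIF20B, the exception, stood at -0.07 and -0.17 (adjusted p = 0.456 and 0.0702, and 0.0399 with NRG-1 under the replicate block).

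Of the 6 kinetochore genes, 4 fell with each ligand. CENPF held 77.7, 124, 83.3, and 70.5 CPM in CSS, with 1 CSS library well above the others, 56.8, 57.2, 64.4, and 50.9 CPM with EGF at 4 hours, and 63.2, 61.7, 64.7, and 38.9 CPM with NRG-1. CENPF fell by 0.62 with EGF (adjusted p = 0.00588) and by 0.63 with NRG-1 (adjusted p = 0.00590) in log2 units. The NRG-1 call was lost without CSS batch 1 replicate 2. NDC80 fell by 0.56 and 0.42, and CENPE and CENPA fell too. NUF2, NDC80's direct partner, held 24.7, 24.1, 21.4, and 28.9 and 23.9, 25.7, 23.4, and 39.6 CPM and was not called (-0.30 and -0.12, adjusted p = 0.179 and 0.628; 0.00783 with EGF under the replicate block). SPC25 held 11.8, 12.3, 9.24, and 11.6 and 11.3, 11.8, 9.93, and 13.9 CPM (-0.07 and -0.01). The 2 kinetochore genes with the largest serum differences were thus not called at 4 hours.

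Of the cyclin-CDK1 group, 3 of 6 fell with EGF and 2 with NRG-1. CDK1 was not called: it held 137, 137, 116, and 140 CPM with EGF and 127, 136, 123, and 192 CPM with NRG-1 at 4 hours, log2 differences of -0.30 and -0.18 (adjusted p = 0.109 and 0.374; 0.00226 and 0.0457 under the replicate block). CCNB1 (-0.20 and -0.06) and CDC25B (0.03 and 0.04) were not called, though the replicate block called CCNB1 with EGF (adjusted p = 0.0357). CCNA2 and CDC25C fell with both ligands, and CCNB2 fell with EGF and, under the replicate block, with NRG-1 (adjusted p = 0.00331). PLK1 fell by 0.31 and 0.28: it held 37.0, 36.5, 44.3, and 44.6 CPM with EGF and 35.7, 37.1, 47.9, and 46.1 CPM with NRG-1.

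In the spindle, passenger, and cytokinesis groups most members fell. HMMR held 49.2, 51.0, 55.5, and 72.4 CPM with EGF (log2 difference -0.61, adjusted p = 0.00310) and 50.2, 55.4, 68.7, and 109 CPM with NRG-1 (-0.33, adjusted p = 0.113; 0.00221 under the replicate block). Its last library with NRG-1, batch 2 replicate 2, lay above every CSS library, and without it HMMR was called. NUSAP1 held 76.7, 75.8, 72.0, and 83.0 and 75.6, 77.2, 80.4, and 98.8 CPM (-0.33 and -0.23). Its NRG-1 call was lost without CSS batch 1 replicate 2 or without batch 1 replicate 1, batch 1 replicate 2, or batch 2 replicate 1 of NRG-1 at 4 hours. AURKB held 12.5, 12.8, 10.5, and 11.6 and 11.0, 11.7, 11.3, and 12.8 CPM (-0.33 and -0.35), below every CSS library with both ligands. BIRC5 held 64.6, 60.8, 62.0, and 65.8 and 59.0, 65.1, 63.7, and 87.1 CPM and was not called (-0.22 and -0.11, adjusted p = 0.0913 and 0.446; 0.00941 with EGF under the replicate block). PRC1 held 65.5, 63.2, 62.0, and 58.9 and 66.7, 66.1, 67.0, and 54.1 CPM (-0.29 and -0.27). All 5 spindle assembly genes and all 4 cytokinesis genes fell with EGF, and 4 and 3 of them with NRG-1. ECT2, a regulator of cytokinesis not called with NRG-1 (-0.19), was called under the replicate block (adjusted p = 0.0246).

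TOP2A held 97.0, 99.5, 90.8, and 98.8 and 100, 104, 100, and 118 CPM at 4 hours and fell by 0.49 and 0.36. Neither transcription factor was called: FOXM1 held 76.9, 74.8, 91.8, and 83.4 and 76.2, 73.5, 91.99, and 74.7 CPM (-0.17 and -0.22, adjusted p = 0.138 and 0.0647; 0.0344 and 0.00807 under the replicate block), and MYBL2 stood at 0.07 and -0.05. MKI67, the gene of the proliferation marker Ki-67, stood at -0.19 and -0.34 (adjusted p = 0.456 and 0.177, and 0.0222 with NRG-1 under the replicate block) with a wide spread. The block called 42 members lower with EGF (28.8% of genes tested) and 37 with NRG-1 (25.6%). Of the 12 members called with neither ligand, CCNB1, CDK1, MAD2L1, NUF2, BIRC5, and FOXM1 were called with EGF both under the replicate block and without the replicate 2 libraries of batch 2.

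The fall was tested against the earlier time itself, where ligand and further hours in stripped serum likewise cannot be told apart. From 1 hour to 4 hours 33 members fell with EGF, against 21.5% of genes tested, and 24 fell with NRG-1, against 18.5%, with none rising. KIF14 fell the most with EGF (by 0.89, SE 0.11) and ESPL1 with NRG-1 (by 0.66, SE 0.12). Over the 48 members the 2 time differences had Pearson's r = 0.825 and Spearman's rho = 0.756, a description across genes. They contrast different libraries but share the 2 batches and the joint fit. The ligands were compared directly as well. EGF against NRG-1 gave 0 called members at 5 minutes (0% of genes tested), 0 at 1 hour (1.06%), and 0 at 4 hours (1.66%) by edgeR, with 0, 4, and 1 members at an unadjusted p under 0.05. Shares of all genes at the unadjusted threshold are not given, so the latter counts are not read as differences. At 1 hour these 4 (CENPE, KIF11, KIF14, and ANLN) were all higher with EGF, by 0.12 to 0.36 on the log2 scale, and the replicate block called 2 members there (2.81% of genes tested). All 4 are among the longer members, and differences in this comparison rose with length (Spearman's rho 0.75 over the members). The part of length was not tested. The differences between the ligands ran from -0.19 to 0.36 at 1 hour and from -0.29 to 0.15 at 4 hours.

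Serum and ligand differences were also compared without the CSS group mean, although the CSS libraries remained in the joint fit. All 48 members were higher in FBS than in cells with EGF for 4 hours (31% of genes tested; median log2 fold change 1.65) and than in cells with NRG-1 for 4 hours (27.8%; median 1.62). TTK differed the most, by 2.48 and 2.19, and CDC25B the least, by 0.82 in both.

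The neighboring gene lists were read at 4 hours too. Of all genes tested, 24.6% were called lower with EGF and 21% with NRG-1. The shares called higher are not given here, so the counts that rose are not read against them. Of the 36 other G2/M genes, 27 fell with EGF and 2 rose, and 27 fell with NRG-1 and 1 rose. DEPDC1 (-0.76 and -0.54), SGOL2 (-0.69 and -0.51), and PSRC1 (-0.64 and -0.54) fell, and KPNA2, a nuclear import factor, rose (0.56 and 0.46). Of the 24 G1/S genes, 1 fell and 6 rose with EGF, and 2 fell and 4 rose with NRG-1. The replication helicase gene MCM6 rose by 0.50 and 0.46, and E2F1 fell by 0.40 and 0.31. The G1/S genes were thus called higher in FBS like the members, and few of them were called lower with the ligands. In the DREAM and MuvB list, 4 of 11 fell with EGF and 3 with NRG-1, and 2 rose with each: LIN52 (-0.79 and -0.78), LIN54 (-0.69 and -0.63), and RBL1 (-0.55 and -0.51) fell, and the repressor gene E2F4 rose (0.55 and 0.42). Of the LNCaP markers, 6 of 7 fell with each ligand (KLK2 by 1.38 and 1.20 on the log2 scale). Their part in the members' fall was not tested.

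The batches differed in these genes too. Batch 2 against batch 1 called 34 of 48 members, 21 higher and 13 lower, against 55.6% of genes tested, from -0.40 (MKI67) to 0.68 (PTTG1). In FBS against CSS each batch alone called all 48 members, with medians of 1.14 and 1.37, where 25.1% and 12.9% of the genes tested in that batch were called higher. At 4 hours batch 1 alone called 41 members lower with EGF and 41 with NRG-1, against 24.4% and 21.1% of genes tested. Batch 2 alone called 7 and 5 members lower, against 8.73% and 6.27% of genes tested. The members negative in sign numbered 45 in each batch with EGF, and 47 and 38 with NRG-1. The medians with EGF and NRG-1 were -0.41 and -0.42 in batch 1 and -0.29 and -0.15 in batch 2. A test of the difference between batches called 0 members in any of the 3 comparisons by edgeR (6, 3, and 11 at an unadjusted p under 0.05). Of all genes it called 14, 24, and 15, and their share at the unadjusted threshold is not given. The members' median differences, batch 2 minus batch 1, were 0.25, 0.13, and 0.25, and with NRG-1 the lowest was 0.0097. With 2 libraries per group and batch, the test cannot show that the batches were alike. Called in batch 2 alone with both ligands were BUB1B, ESPL1, CDCA8, KIF11, and KIF20A, and these were the 5 members called with both ligands under every alternative fit apart from the added fold limit.

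**Figure D5:**
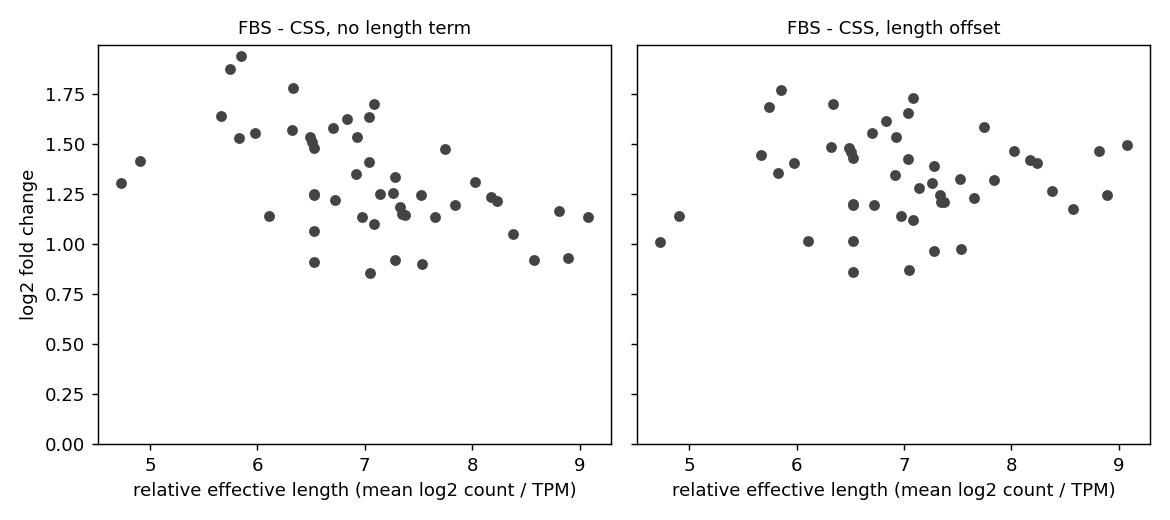
Log2 fold change of FBS over CSS for each of the 48 genes against its relative effective length, the mean log2 ratio of expected count to TPM, without (left) and with (right) a length offset. Without it the shorter genes have the larger values (Spearman's rho -0.57); with it rho is -0.06 and all 48 values are 0.86 or more.

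Differences between groups varied with effective length, the ratio of expected count to TPM. Over the members, Spearman's rho of that length with the log2 difference was -0.57 for FBS against CSS (-0.31 over all genes), -0.39 and -0.52 for EGF and NRG-1 at 4 hours (-0.01 and -0.10 over all genes), and 0.75 for EGF against NRG-1 at 1 hour (0.51 over all genes). These are descriptions across genes that share the libraries. With a length offset, 48 members were higher in FBS (0.86 to 1.77), and 38 and 34 fell at 4 hours, where 25.9%, 26.3%, and 22.6% of genes tested were called in these directions. Without the 8 replicate 2 libraries of batch 2, the numbers were 48, 42, and 39, against 29.5%, 28.3%, and 25% of genes tested. The serum and the 4-hour counts were therefore as large with the length term and without those libraries, whereas the order of members by their fold change partly followed length. The offset left part of that trend: rho was -0.275 and -0.278 at 4 hours, and 0.479 for EGF against NRG-1 at 1 hour. Without those libraries rho was -0.483 for FBS against CSS, and -0.419 and -0.369 at 4 hours. After group and batch were removed, the members' levels over the 32 libraries had a median pairwise r of 0.45, from -0.86 to 0.99, with 66.9% of 1128 pairs positive. By member, the median r with the other members ran from -0.28 (MKI67) to 0.705 (AURKA). It was below 0 for CENPF (-0.26) and MYBL2 (-0.21) too, among others. The same value over all genes is not given.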

How the data were processed

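RNA was polyA-selected and made into strand-specific libraries. The authors trimmed reads with Trimmomatic 0.36 and ran RSEM around STAR 2.7.0f on hg19, per the labels' processing notes. The gene annotation is not given in the sources used here. The deposited values were expected counts per gene (11.2% not whole, rounded here for the tests) and TPM, which the authors' RSEM scaled for transcript length. A gene was tested if 3 or more libraries held 5 or more counts (16995 of 25498 genes). Counts were scaled by TMM and fitted over all 32 libraries with group and batch in edgeR 4.0.16 (R 4.3.3), quasi-likelihood test, with Benjamini-Hochberg adjustment within each comparison. A gene was called at an adjusted p under 0.05. CPM here is TMM-scaled. P values that carry the word adjusted come from this fit unless another is named. Pipelines that share reads among similar transcripts and scale by length, as here, can move the levels of short or duplicated genes.

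The members and the other gene lists were chosen with earlier results of these data known. Values in each library are given for the member with the highest mean TPM in each role, the 5 with the largest serum difference, the 5 with the largest mean ligand difference at 4 hours, and the member with the largest opposite change there. At most 4 genes of each other list are named, by size of difference. Samples were grouped by the labels' treatment. Libraries with the same batch and replicate number deviated together (r from 0.22 to 0.74 over all 112 pairs). The labels give the shared batch, which the edgeR fit already holds as a term, and with batch removed r ran from -0.22 to 0.58, over 0.1 in 52 of the 112 pairs. Fits with the replicate number as a block were made as alternatives. Other alternatives were DESeq2 1.42.0, limma 3.58.1 on log2(TPM + 1) or log2(TPM + 0.1), other filters and scalings, single batches, a length offset, and leaving out libraries. The length offset, the fit without the batch 2 replicate 2 libraries, and the test between batches were chosen after seeing the data. The edgeR step was tested on simulated data.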

Additional observations from a re-analysis of the deposited data

Results flagged for a closer look

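In groups of 4 libraries, a single library lying far from the other 3 was looked for by Dixon's test over 168 groups, and 16 were found, where chance gives about 8. In 12 of them the library was replicate 2 of batch 2. For NUF2 it was high after NRG-1 at 5 minutes (38.4 CPM against 24.1 to 25.9), 1 hour (41.0 against 26.6 to 27.9), and 4 hours (39.6 against 23.4 to 25.7). TTK was high there after NRG-1 at 5 minutes (33.4 CPM against 22.5 to 24.3) and 4 hours (24.8 against 15.2 to 15.7), and MAD2L1 after NRG-1 at 5 minutes (46.1 against 31.9 to 33.8). After EGF at 5 minutes BIRC5 (95.7 CPM against 68.3 to 72.6), NUSAP1 (114 against 93.4 to 96.0), and HMMR (135 against 67.9 to 78.9) were high. CENPF (38.9 CPM against 61.7 to 64.7) and PRC1 (54.1 against 66.1 to 67.0) were low after NRG-1 at 4 hours. The members' median in that library after EGF at 4 hours was -0.29 on the log2 scale relative to CSS, against -0.41 to -0.39 in the other 3.

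In the batch 2 replicate 1 libraries, CDK1 was low after EGF at 4 hours (116 CPM against 136.7 to 140.0), and KIF14 (15.2 CPM against 11.7 to 11.9) and FOXM1 (91.99 against 73.5 to 76.2) were high after NRG-1 at 4 hours. The members' median in CSS batch 1 replicate 2 was 0.17, against -0.08 to -0.06 in the other CSS libraries.

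Levels with a ligand differed between times: 33 members were lower at 4 hours than at 1 hour with EGF, and 24 with NRG-1, by the test of the difference itself.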

How the results depend on the processing

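All 48 members were higher in FBS than in CSS, and than in either ligand at 4 hours, under every alternative fit, apart from the fold limit of 1. The median serum difference was 1.03, 1.05, and 1.03 by limma on log2(TPM + 1), log2(TPM + 0.1), and log2(TPM + 1) without a TPM filter. On TPM the median of all genes also shifted, to -0.17, and the members stood 1.22 above it. Scaling by library size moved the all-gene median to -0.12 and -0.10 for EGF and NRG-1 at 4 hours, with the members 0.33 and 0.29 below it in size. In batch 2 alone, 7 members were lower with EGF at 4 hours (8.73% of genes tested) and 5 with NRG-1 (6.27%, median -0.15). From 1 hour to 4 hours 9 and 5 were lower in that batch, and at 1 hour 0 with either ligand. That batch has 2 libraries per group. Where a count in this section stands without a share of all genes tested, that share is not given, and the count is not read against it. No member passed a log2 fold change of 1 in any ligand comparison (0 in each). At 1 hour, EGF gave 3 members lower under the replicate block, 3 with only the 2 groups compared, 3 with the length offset and block, and 0 by limma without a TPM filter. NRG-1 gave 5 under the block, 2 with the length offset and block, and 0 when batch was not a term, when the other groups were left out, or by limma at any of the 3 settings. EGF against NRG-1 at 1 hour gave 2 under the block and 1 with the length offset as well. The block moved the other counts by under 1.5 times (42 with EGF and 37 with NRG-1 at 4 hours), and the calls it changed among serum, 1-hour, and 4-hour comparisons with CSS are those named in the report. Leaving out libraries gave 48 for each FBS comparison, 31 to 42 (EGF) and 25 to 39 (NRG-1) at 4 hours, 28 to 36 and 18 to 33 from 1 hour to 4 hours, 1 to 2 and 0 to 2 at 1 hour, and 0 at 5 minutes and between the ligands. The highest 4-hour values are without all 8 replicate 2 libraries of batch 2, and the medians ran from 1.22 to 1.33, -0.39 to -0.28, and -0.35 to -0.20. The cause was not tested in any of these. In the serum, 1-hour, and 4-hour comparisons with CSS, no member was called in opposite directions by different fits. Signs did change between single batches. With NRG-1 at 1 hour the members' median was -0.13 in batch 1 (42 negative) and 0.05 in batch 2 (13 negative). That difference between batches was not tested. With NRG-1 at 4 hours, 47 members were negative in batch 1 and 38 in batch 2.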
